A study of Arabidopsis thaliana with 8 samples.

Results

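The genes described here had lower expression in wild-type germinating Arabidopsis thaliana seedlings on abscisic acid (ABA) than without it, and nearly the same value in the ahg1-1 and ahg3-1 mutants as in wild type on the same ABA medium. They were chosen from the measured values by a fixed rule applied between arrays of the same replicate number. Wild type on ABA minus wild type without ABA had to be at most -1 on the log2 scale (2-fold lower) in both replicate numbers, and each mutant minus wild type on ABA had to lie between -0.3 and 0.3 in both numbers. Of 22246 probe sets 64 met the rule. A probe set is the group of array probes that reads 1 transcript. In all, 36 of the 64 have 1 named gene, and the other 28 are unnamed here.

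The study compared Columbia wild-type seedlings without ABA with 3 groups on 0.5 uM ABA: Columbia wild type, the ABA-hypersensitive mutant ahg1-1 and the ABA-hypersensitive mutant ahg3-1. Each group has 2 arrays, 8 in all, numbered 1 and 2 in the labels. Titles, source names and treatment protocols give these groups, but the free description of every sample says wild type in normal conditions, which conflicts with the titles of 6 of the 8. All seeds were stratified in the cold, then germinated for 2 days on MS medium with sucrose in long days, and total RNA of whole seedlings was hybridised to 1-colour arrays. Neither mutant was measured without ABA, so the mutant values describe seedlings on ABA only. Whether paired arrays of 1 group stem from different cultures is not stated. In whole seedlings, fewer cells of a type and less RNA per cell cannot be told apart. A later stage of germination without ABA and a direct effect of ABA cannot be told apart either.

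ABA holds back germination and the switch from seed reserves to photosynthetic growth. The AHG1 and AHG3 genes encode related protein phosphatases of the PP2C class, which keep ABA signalling low by acting on protein kinases of that pathway, and loss of either makes germination more sensitive to ABA. A gene lowered by ABA can read lower still in such mutants or stay near the wild-type value, and the 64 members were chosen for the latter.

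Because the rule used all 8 arrays and every comparison of the design, no measure of expression here is independent of it. The falls with ABA and the small mutant differences are therefore given as descriptions, without a test. As a background, 648 of the 22246 probe sets (2.91%) were at most -1 with ABA in both numbers, and the 64 members are those of the 648 that also stayed inside the mutant window. Over the members the median standard error of an ABA difference between group means was 0.277 in a limma fit to all 8 arrays, and 0.172 with the replicate number as a block. The error of a difference between 2 single arrays, to which the window applies, was not estimated. In these fits it is larger than the error of group means, which average 2 arrays each. Leaving out an array asks fewer conditions and so adds members. There were 821 when wild type on ABA number 1 was dropped, 200 when number 2 of that group was dropped, 171 and 127 when number 1 or 2 of wild type without ABA was dropped, and 70 to 86 when a mutant array was dropped. In that limma fit 19 members were called lower with ABA at an adjusted p below 0.05, where 151 of all probe sets (0.679%) were called lower; since the rule used the same contrast, nothing is read from this count. Dropping 1 array at a time gave between 3 and 12 called members, and adding the replicate number to the fit as a block gave 63, where 6.48% of all probe sets were called lower.

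Most members had a modest difference. The mean of the 2 ABA differences was between -1.5 and -1.04 for 36 of the 64 and at or beyond -2 for 11, with a median of -1.44 and an extreme of -3.82. The median was -1.33 within number 1 and -1.40 within number 2, against 0.020 and 0.093 over all probe sets. For 63 of the 64 every one of the 6 arrays on ABA, mutant or wild type, lay below both arrays without ABA. The rule fixes this to a large part. The same held for 619 of the 648 probe sets lowered in both numbers, and for 2536 of all probe sets (11.4%). The exception among the members was rpl16, described below.

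**Figure D1:**
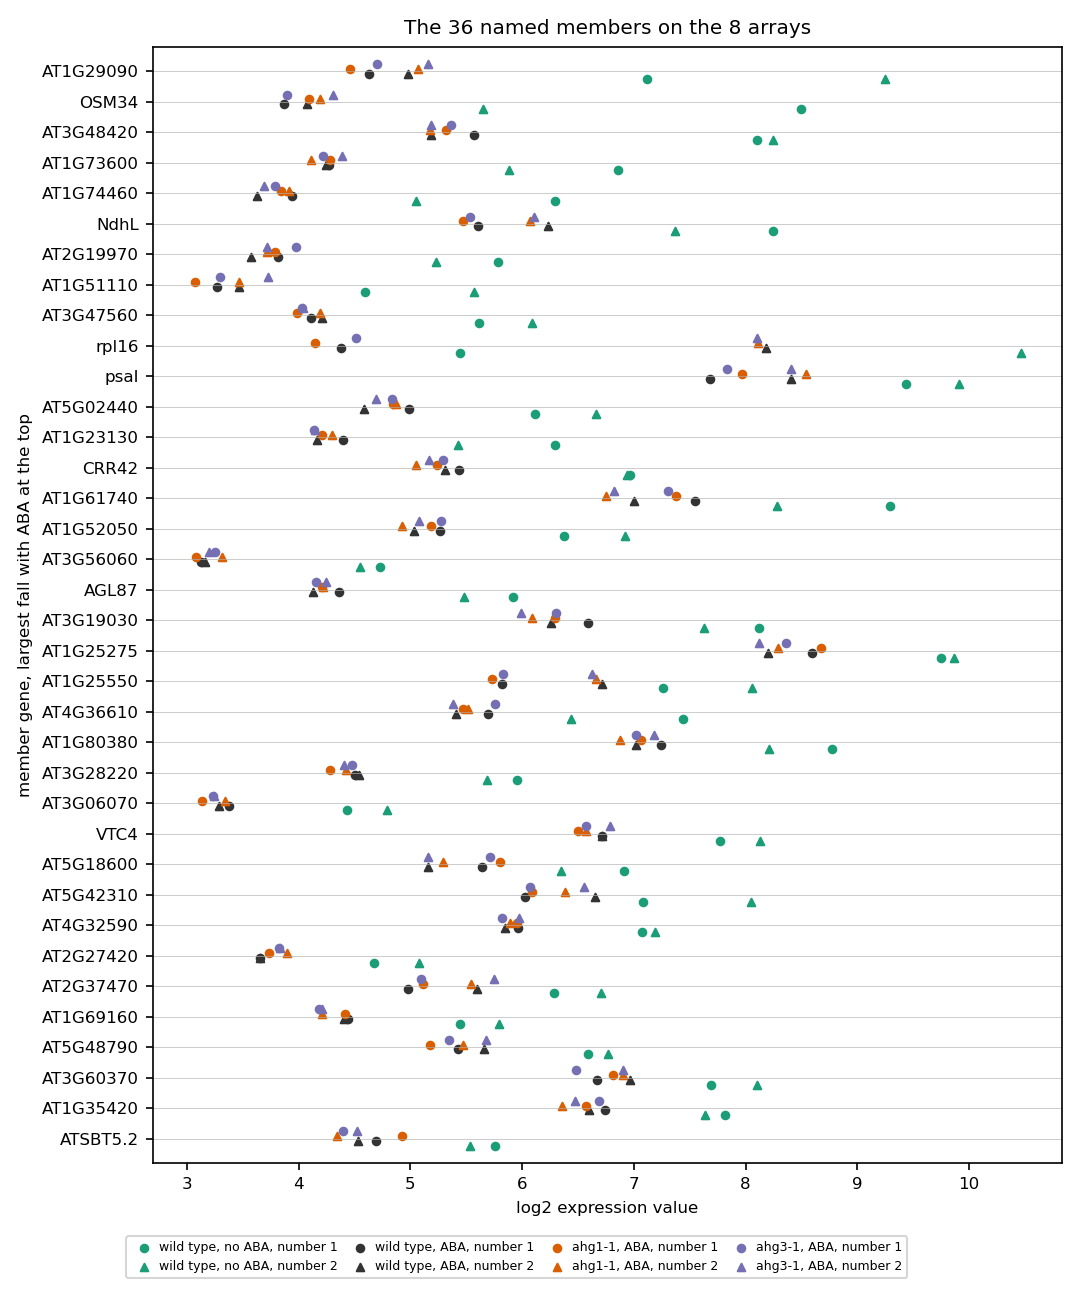
Log2 expression values (x axis) of the 36 named members (y axis, largest fall with ABA at the top) on the 8 arrays, with colours for the 4 groups, circles for replicate number 1 and triangles for number 2. The 6 arrays on ABA lie together to the left of the 2 arrays without ABA in each row except rpl16, where number 2 lies to the right of number 1 in all groups.

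The largest difference with ABA belonged to an unnamed probe set, singled out after its values were seen. It read 8.82 and 8.23 without ABA (log2, numbers 1 and 2), 4.91 and 4.50 in wild type on ABA, 5.16 and 4.62 in ahg1-1, and 4.68 and 4.60 in ahg3-1. Both arrays without ABA stood far above all 6 arrays on ABA, and the ABA differences of -3.91 and -3.74 in the 2 numbers were close to each other. Another unnamed probe set was similar, with ABA differences of -3.02 and -2.65.

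Among genes of secreted, defence-related or protein-degrading proteins, AT1G29090, which encodes a papain-type cysteine protease, had the largest difference. It read 7.12 and 9.25 without ABA, 4.63 and 4.98 in wild type on ABA, 4.46 and 5.07 in ahg1-1, and 4.70 and 5.16 in ahg3-1. All 6 arrays on ABA lay together, while the 2 arrays without ABA differed from each other. The mean difference of -3.38 corresponds to a 10.4-fold lower value. A second papain-type protease gene, AT2G27420, read 4.67 and 5.08 without ABA and between 3.66 and 3.89 on the 6 arrays on ABA.

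OSM34 encodes osmotin 34, a member of the thaumatin family of pathogenesis-related proteins. It read 8.50 and 5.65 without ABA, 3.87 and 4.07 in wild type on ABA, 4.09 and 4.19 in ahg1-1, and 3.89 and 4.31 in ahg3-1. The difference with ABA was -4.63 within number 1 and -1.58 within number 2, a gap that lies in the arrays without ABA. OSM34 and AT2G27420 were the 2 members whose 4 mutant differences were all above 0, by at most 0.24 in both genes.

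AT2G19970, a gene of the PR-1-like family of small secreted proteins, read 5.78 and 5.23 without ABA and between 3.57 and 3.98 on the arrays with ABA. AT1G74460, which encodes a lipase of the GDSL family, read 6.29 and 5.05 without ABA and between 3.63 and 3.94 with it. In both genes the ABA arrays of the 3 genotypes were mixed among each other. The subtilisin-type protease gene ATSBT5.2 had the smallest mean difference of all members, -1.04, at 5.76 and 5.54 without ABA and between 4.34 and 4.93 with it. AT1G23130, of the Bet v 1 family of small ligand-binding proteins, had ABA differences of -1.90 and -1.26.

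Several of these genes stand beside relatives in the genome, and the neighbours were looked at after the values of the members were seen. The proteases AT1G29080 and AT1G29110 next to AT1G29090 had ABA differences of 0.050 and 0.60 for the first and 0.048 and 0.34 for the second, within numbers 1 and 2. Of the 3 papain-type genes measured there, AT1G29090 alone was lower with ABA in both numbers. Without ABA AT1G29080 read only 4.66 and 3.85 and AT1G29110 only 5.06 and 4.21. The part of these low levels in their ABA differences was not tested. The PR-1-like genes AT2G19980 and AT2G19990 had mean ABA differences of -0.20 and -0.70, against -1.81 for AT2G19970. They too read low without ABA, at 4.64 and 3.81 and at 4.70 and 4.19. AT1G23120, the Bet v 1-type neighbour of AT1G23130, had a mean ABA difference of -0.19 and read 5.06 and 4.90 without ABA.

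The member AT1G52050, which encodes a jacalin-type lectin, read 6.37 and 6.92 without ABA, 5.27 and 5.03 in wild type on ABA, 5.18 and 4.93 in ahg1-1, and 5.27 and 5.07 in ahg3-1. Its neighbours AT1G52060 and AT1G52070, of the same lectin family, had larger ABA differences, with means of -2.89 and -3.72. Both left the mutant window: AT1G52060 by -0.39 and 0.43 in ahg1-1 (numbers 1 and 2), and AT1G52070 by 0.48 in ahg3-1 number 1. These 3 genes shared the direction with ABA in both numbers, but they are neighbours looked up after the member was seen. Over the wider list of lectin and myrosinase genes matched by symbol, which does not hold these 3, 5 genes were measured, 0 were at most -1 in both numbers, and the median ABA difference was -0.14. All member probe sets carry the plain suffix that marks probes designed for 1 transcript, against 980 of all probe sets with another suffix, but probes shared between close relatives were not checked here.

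Genes of the chloroplast are set together next by their known roles, with no test of enrichment. Nuclear photosystem and light-harvesting genes matched by symbol numbered 8. All 8 were at most -1 with ABA in both numbers, with a median of -3.12, and 0 of the 8 stayed inside the mutant window. Of 8 measured genes of the Calvin cycle and chlorophyll synthesis list, 4 were lowered by ABA in both numbers, and 0 were members. Of all 648 lowered probe sets only 9.88% were members, and of the 85 with a mean beyond -3 only 3.53%. With so few genes in each list, nothing is read from the absence of members.

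The members of this kind included 2 genes of the NDH complex, a chloroplast membrane complex that passes electrons from the stroma back to the plastoquinone pool in cyclic electron flow around photosystem I. NdhL, a subunit of the complex encoded in the nucleus, read 8.25 and 7.37 without ABA, 5.61 and 6.24 in wild type on ABA, 5.47 and 6.07 in ahg1-1, and 5.53 and 6.11 in ahg3-1. Within number 1 the difference with ABA was -2.64 and within number 2 -1.13. The mutant arrays followed the wild-type array of their own number to within 0.16. CRR42, a factor needed for accumulation of the same complex, read 6.96 and 6.93 without ABA, 5.43 and 5.31 in wild type on ABA, 5.23 and 5.05 in ahg1-1, and 5.29 and 5.17 in ahg3-1. Its difference was nearly the same in both numbers, -1.53 and -1.62.

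The other genes of the NDH complex, a list added after the values were seen, covered a range from near 0 to well below the ABA limit. Of 10 measured plastid-encoded subunit genes 6 were below 0 with ABA in both numbers, a share that was not counted over all probe sets. The list median was -0.74, against 0.054 over all probe sets. Only ndhJ reached the limit of -1 in both numbers. The mutant difference of ndhJ in ahg1-1 was -0.35 and -0.34, just outside the window. Of 8 measured nuclear genes 4 were at most -1 in both numbers: the members NdhL and CRR42, and the subunits NdhN and NdhS. NdhN had ABA differences of -1.65 and -1.35 and NdhS of -1.17 and -1.90, and both lay outside the mutant window. NdhN differed from wild type by -0.51 and -0.12 in ahg1-1 and by -0.33 and -0.066 in ahg3-1 (numbers 1 and 2), and NdhS by -0.90 and -0.56 in ahg1-1 and by -0.46 and -0.048 in ahg3-1. The other measured CRR factors, CRR21, CRR22, CRR28 and CRR41, had ABA differences no lower than -0.60 in either number.

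**Figure D2:**
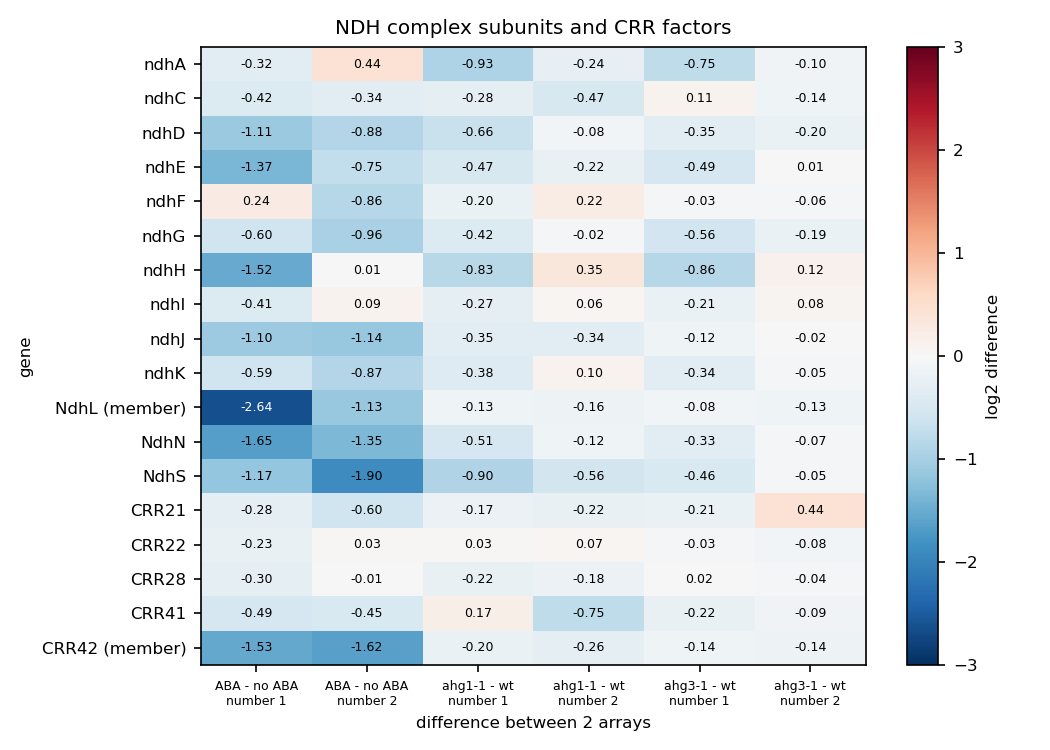
Differences between 2 arrays (columns, log2, printed in each cell and coloured from blue for lower to red for higher) for 18 genes of the NDH complex and its factors (rows). NdhL and CRR42, the members, are lower with ABA in both numbers and pale in the 4 mutant columns, while NdhN and NdhS are lower with ABA and also below -0.3 in both mutants within number 1, and NdhS in ahg1-1 within number 2 as well.

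Plastid-encoded genes supplied 2 members. In all, 69 of them were measured and 25 were at most -1 with ABA in both numbers, against 2.91% of all probe sets. The first member is psaI, a small subunit of photosystem I. It read 9.43 and 9.91 without ABA, 7.68 and 8.41 in wild type on ABA, 7.97 and 8.54 in ahg1-1, and 7.83 and 8.40 in ahg3-1. Of the 5 measured plastid genes of photosystem I, psaA, psaB and psaC were also at most -1 in both numbers. Within number 1 they differed from wild type by -1.51, -0.81 and -1.08 in ahg1-1 and by -1.27, -0.56 and -1.02 in ahg3-1. Within number 2 they stayed inside the window in both mutants, between -0.24 and 0.16. The fifth, psaJ, stayed inside the window in the mutants but differed by only -0.56 with ABA within number 2.

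The second plastid member, rpl16, encodes a protein of the large subunit of the plastid ribosome. It read 5.44 and 10.46 without ABA, 4.38 and 8.18 in wild type on ABA, 4.14 and 8.11 in ahg1-1, and 4.51 and 8.10 in ahg3-1. Number 2 stood above number 1 in every group, and the wild-type array on ABA of number 2 was above the array without ABA of number 1, so the groups overlap unless the numbers are taken apart. Another large-subunit gene, rpl14, had a similar gap, with 4.66 and 8.70 without ABA and 3.45 and 7.32 in wild type on ABA. It met the ABA limit with -1.21 and -1.38 but missed the window by a single difference, -0.33 in ahg3-1 number 2. Of the 7 measured plastid genes for large-subunit proteins 2, rpl16 and rpl14, were at most -1 with ABA in both numbers. Below 0 in both numbers were 6 of the 7. That share was not counted over all probe sets, so nothing is read from it.

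Among the other named nuclear genes of chloroplast metabolism and gene expression AT3G48420 had the largest mean difference. That gene encodes a sugar-phosphate phosphatase of the haloacid dehalogenase type and read 8.10 and 8.25 without ABA, 5.57 and 5.19 in wild type on ABA, 5.31 and 5.18 in ahg1-1, and 5.36 and 5.18 in ahg3-1. Number 2 minus number 1 was 0.15 without ABA and -0.38 in wild type on ABA. The ABA differences of -2.53 and -3.06 give a mean 6.94-fold lower value. AT1G80380, the glycerate kinase of photorespiration, read 8.77 and 8.21 without ABA and between 6.87 and 7.24 with it. AT5G42310, a pentatricopeptide repeat protein related to the chloroplast RNA-processing factor CRP1 of maize, read 7.08 and 8.05 without ABA and between 6.03 and 6.65 with it. Here each number kept its own level, number 2 above number 1.

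AT3G60370, an FKBP-type prolyl isomerase of the thylakoid lumen, had ABA differences of -1.02 and -1.13. AT1G51110 belongs to the plastid lipid-associated fibrillin family and had differences of -1.33 and -2.10. A second probe set of AT1G51110 read -0.87 and -0.92 with ABA and between -0.26 and -0.11 in the mutants, so the 2 probe sets of this gene share the direction while only 1 reached the limit. AT4G32590, which encodes a protein with a ferredoxin-like iron-sulphur domain, had differences of -1.11 and -1.34. AT5G18600, a monothiol glutaredoxin, had differences of -1.27 and -1.19.

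Enzymes of lipid, sugar and ascorbate metabolism also had members. AT1G73600 encodes a phosphoethanolamine N-methyltransferase, an enzyme of phosphocholine synthesis, and read 6.86 and 5.89 without ABA, 4.27 and 4.25 in wild type on ABA, 4.28 and 4.11 in ahg1-1, and 4.22 and 4.39 in ahg3-1. The 6 arrays on ABA were almost level. The related methyltransferase gene AT1G48600 (PMEAMT) had ABA differences of -0.19 and -1.26. Within number 1 it differed from wild type by -0.72 in ahg1-1 and by -0.40 in ahg3-1. VTC4, the L-galactose-1-phosphate phosphatase of ascorbate synthesis, read 7.77 and 8.13 without ABA, 6.72 and 6.71 in wild type on ABA, 6.50 and 6.57 in ahg1-1, and 6.57 and 6.78 in ahg3-1. All 6 values on ABA stood clear of both arrays without it.

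The alpha/beta-hydrolase genes AT3G47560, AT4G36610 and AT1G35420 had mean ABA differences of -1.69, -1.39 and -1.06. AT3G56060, of the glucose-methanol-choline oxidoreductase family, had one of -1.49 and read between 3.09 and 3.32 on the arrays with ABA. AT1G61740, of the TauE/SafE family of membrane transporters for sulphur-containing anions in bacteria, read 9.29 and 8.28 without ABA and between 6.75 and 7.55 with it. It was among the members with all 4 mutant differences below 0.

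Regulators and chromatin genes were also among the named members. AT1G25550, a GARP-type transcription factor of the group that responds to nitrate and phosphate supply, read 7.26 and 8.05 without ABA, 5.82 and 6.71 in wild type on ABA, 5.73 and 6.66 in ahg1-1, and 5.83 and 6.63 in ahg3-1. Its largest mutant difference was 0.096 in size, and only 3 members had all 4 within 0.1. The MADS-box gene AGL87 had ABA differences of -1.56 and -1.35. The histone H2B gene AT2G37470 had differences of -1.30 and -1.12, and AT3G28220, which encodes a protein with a TRAF-like domain, had differences of -1.44 and -1.14.

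The remaining 6 named members are given by locus without a role: AT5G02440, AT3G19030, AT1G25275, AT3G06070, AT1G69160 and AT5G48790. Their mean ABA differences ran from -1.60 for AT5G02440 to -1.14 for AT5G48790. By the mean of the 2 arrays without ABA, AT3G06070 had the lowest reading of all members, at 4.44 and 4.79, although readings of different probe sets are no scale of transcript amount. The highest mean belonged to an unnamed probe set, at 10.19 and 9.96. The least even of the other unnamed members had 5.95 and 9.28 without ABA and values between 4.39 and 4.88 on all 6 arrays with it.

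The replicate numbers agreed in direction for every member by the rule, but not always in size. The ABA differences of numbers 1 and 2 lay within 0.5 of each other for 40 of the 64. They lay more than 1 apart for 10 (15.6%), against 168 of the other 584 lowered probe sets (28.8%). In all 10 members the gap between the arrays without ABA was larger than that between the wild-type arrays on ABA. The rule is linked to alike wild-type arrays on ABA, as described below, so nothing is read from this. The larger difference fell in number 1 for 34 members and in number 2 for 30. Among the other 584 lowered probe sets it fell in number 2 for 413 (70.7%).

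**Figure D3:**
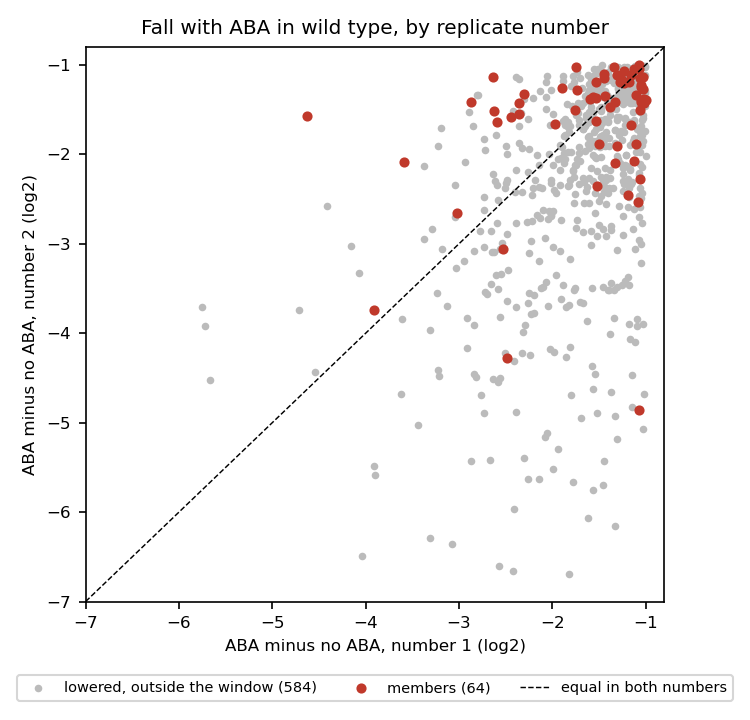
ABA minus no ABA in wild type (log2) within number 1 (x axis) and number 2 (y axis) for the 64 members (red) and the 584 other probe sets lowered in both numbers (grey), with a dashed line where both are equal. Members lie on both sides of the line and mostly above -3, while the grey points extend further down in number 2.

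The members differed from the rest of the lowered probe sets in how alike the 2 wild-type arrays on ABA were. These arrays are the reference of both mutant comparisons, so this likeness and the rule are linked and no test is given. The gap between them had a median size of 0.28 over the members, 0.94 over the other 584 and 0.39 over all probe sets. Wild type on ABA read higher in number 1 than in number 2 for 502 of the other 584 probe sets (86.0%), with a median of 0.85. Among the members it did so for 36 of 64, with a median of 0.084. In the mutants the same gap between numbers over the other 584 had medians of 0.35 in ahg1-1 and 0.24 in ahg3-1.

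The 4 conditions of the window removed unequal numbers of the 648 lowered probe sets. Inside the window lay 135 (20.8%) for ahg1-1 and 152 (23.5%) for ahg3-1 in number 1. In number 2 it was 345 (53.2%) for ahg1-1 and 525 (81%) for ahg3-1. Over all probe sets number 1 also had the smaller shares inside, 57.7% for ahg1-1 and 62.1% for ahg3-1, against 78.7% and 91.2% in number 2. Most lowered probe sets that left the window were lower in the mutant: 505 of 648 for ahg1-1 in number 1 (77.9%) and 107 of 648 for ahg3-1 in number 2 (16.5%). Over all probe sets these shares were 20.4% and 4.62%. The 2 mutants share the wild-type arrays, so their counts are not independent. In all, 9.88% of the lowered probe sets met the 4 conditions, against 38.0% of all probe sets and 10.4% of the 402 probe sets that were at least 1 higher with ABA in both numbers.

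**Figure D4:**
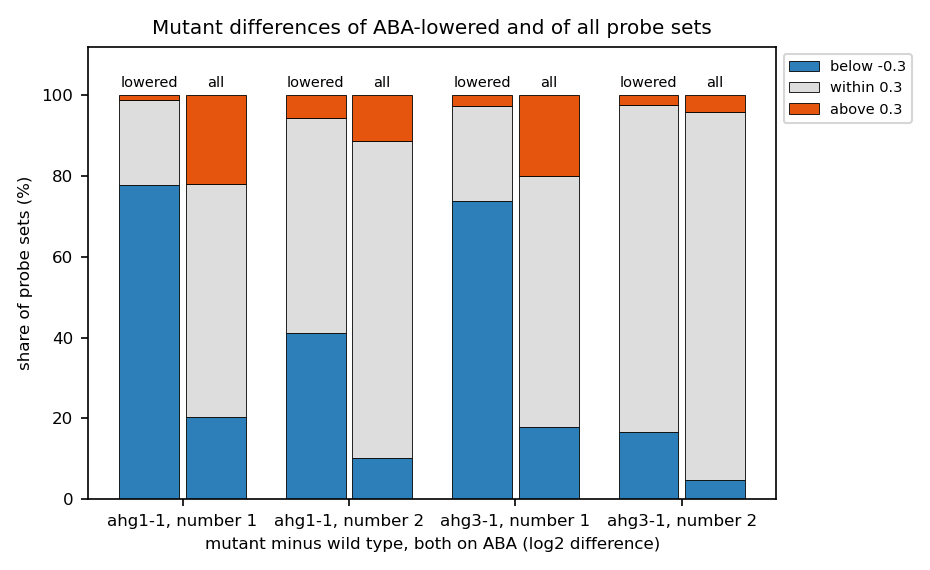
Share of probe sets (y axis, percent) whose mutant minus wild type difference on ABA lay below -0.3 (blue), within 0.3 (grey) or above 0.3 (orange), for each mutant and replicate number, in the 648 ABA-lowered probe sets (left bars) and all 22246 (right bars). The lowered probe sets are mostly below -0.3 in number 1 of both mutants and mostly inside the window in number 2 of ahg3-1.

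Inside the window differences below 0 were the more frequent, in 43 and 38 of the 64 members for ahg1-1 (numbers 1 and 2) and in 41 and 34 for ahg3-1. The medians over the members were -0.089 and -0.034 for ahg1-1 and -0.098 and -0.0028 for ahg3-1, far from the -0.76, -0.24, -0.70 and -0.093 of the other lowered probe sets, as the rule fixes. For 14 of the 64 members (21.9%) all 4 were below 0 and for 2 (3.13%) all were above 0. Over all 8446 probe sets inside the window these shares were 9.64% and 11.5%. The 14 include AT3G48420, NdhL, CRR42, AT3G47560, AT1G61740, AT3G19030, AT3G28220, AT1G69160 and AT1G35420. The 4 values of a probe set share 2 wild-type arrays.

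The mutants were close to each other as well, which the window forces to a large part. The difference ahg1-1 minus ahg3-1 over the members ran from -0.37 to 0.54 within number 1 and from -0.30 to 0.42 within number 2, with medians of 0.0018 and -0.026. It was below 0 in both numbers for 16 members and above 0 in both for 12, and changed sign between numbers for the rest.

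A low signal on ABA was common among the members. On all 6 arrays with ABA 21 of the 64 (32.8%) lay in the lowest 25% of the values of each array, below a log2 value of 4.46 to 4.64, against 39 of the other 584 (6.68%), 19.7% of all probe sets and 29.9% of those inside the window. OSM34, AT1G73600, AT1G74460, AT2G19970, AT1G51110, AT3G47560, AT1G23130, AT3G56060, AGL87, AT3G06070, AT2G27420 and AT1G69160 belong to these 21. The lowest values on the arrays were 2.38 to 2.53. At the other end, 18 members, among them psaI, AT1G25275, AT1G61740, AT1G80380 and VTC4, lay above the median of all 6 arrays.

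The lowered probe sets were also divided by their mean value on ABA into 4 bins that each hold 25% of all probe sets. Members made up 22.2% of 108 in the lowest bin, 9.71% of 206 in the next, then 6.28% of 191, and 5.59% of 143 in the highest. Over all probe sets the share inside the window went from 51.6% in the lowest bin to 32.0% in the highest. The part of low signal in the choice of members was not tested. The 43 members above the lowest 25% on at least 1 array had a median ABA difference of -1.29 and reached -3.82. The share of members was also lower among probe sets with larger ABA differences, from 16.8% of 214 probe sets between -1.5 and -1 to 3.53% of 85 beyond -3.

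**Figure D5:**
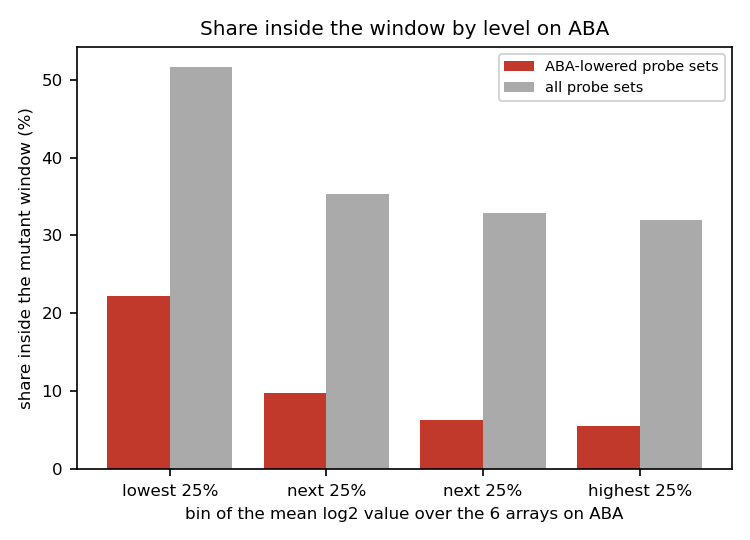
Share inside the mutant window (y axis, percent) by mean log2 value over the 6 arrays on ABA (x axis, 4 bins of 25% of all probe sets), for the ABA-lowered probe sets (red) and for all probe sets (grey). The share is highest in the lowest bin, 22.2% and 51.6%, and lower in the other bins in both sets.

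The values next to the limits show how close some choices were. Just inside the ABA limit lay AT1G69160 at -1.0005, ATSBT5.2 at -1.0048 and AT2G27420 at -1.02 in the number with the smaller difference, and just outside it AT1G76110 and AT3G14760 at -0.998 and AT1G32520 at -0.99. The largest mutant difference was 0.297 in size for ATSBT5.2, 0.296 for AT3G19030 and 0.293 for an unnamed probe set, just inside the window. Just outside it were an unnamed probe set at 0.303, the thionin gene THI2.2 at 0.305 and another unnamed probe set at 0.307. THI2.2 had ABA differences of -1.94 and -2.06, larger than those of most members.

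Markers of single tissues could be followed for few genes. None of them is a member, but only 64 of all 22246 probe sets are, so nothing is read from this. The 2 measured of 8 cotyledon mesophyll markers, PSAN and PRK, together averaged 11.4 and 11.2 without ABA (numbers 1 and 2), 8.17 and 6.18 in wild type on ABA, 5.84 and 5.20 in ahg1-1, and 6.05 and 5.61 in ahg3-1. The 2 measured of 12 root hair markers, the expansins EXPA7 and EXPA18, together averaged 7.64 and 7.66 without ABA, 8.42 and 5.48 in wild type on ABA, 7.55 and 5.38 in ahg1-1, and 6.28 and 5.23 in ahg3-1. The 2 measured of 5 seed coat markers stayed between 4.47 and 5.04 on average in all groups, and AUR1, the 1 measured of 5 for dividing cells, between 6.13 and 7.34. No marker of the endosperm, the epidermis or the root endodermis and stele was measured under a single name. The part of tissue composition in the values of the members was not tested.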

How the data were processed

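Total RNA of 8 seedling samples was measured on 1-colour arrays, 1 array each. The deposited log2 values, 1 per probe set and array, were made with RMA per the submitters' processing notes (background correction, quantile normalization and probe summary); the version is not given in the sources used here. No filter or further scaling was applied. The 8 array medians ranged from 5.91 to 5.97. With 2 arrays a group, precision is limited by their number.

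Sample titles gave the groups and replicate numbers; source names and treatment protocols match them, while the description field, untreated wild type in all 8 samples, conflicts with 6 titles and was set aside. Any p-value here reflects spread among arrays that may be technical repeats.

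The rule was applied to differences between same-numbered arrays. A linear model of 4 group means over all 8 arrays was fitted with limma 3.58.1 (R 4.3.3), with Benjamini-Hochberg adjustment over 22246 probe sets, and was tested on simulated data. The members, the gene families, the markers and the rule for named genes (all members with 1 gene, since there are 40 or fewer) were chosen with earlier results of these data known, and the NDH, plastid and neighbour lists after the members were seen. The families were matched by gene symbol in capitals, which misses plastid genes and most genes known only by locus. No member was matched to the 2 photosynthesis lists or to the 21 other families, 2 of which matched no probe set. By role some members do belong to such families, among them AT1G74460, AT1G52050, AT2G37470, AT1G25550, psaI and rpl16. AGL87, which has a symbol, was not matched to the transcription factor family either. Of the families the report therefore uses only 3, for the genes they matched. Of all probe sets 12998 have 1 gene of the TAIR10.1 gene table, 74 have 1 that is not in it, 503 have several and 8671 have none. Promoter and protein sequences were not analysed here.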

Additional observations from a re-analysis of the deposited data

How the results depend on the processing

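The number of members, 64, followed the limits of the rule. It was 24 with a window of 0.2, 110 with 0.4, 110 with an ABA limit of -0.8, 15 with -1.5 and 323 when the rule was asked of group means. With the ahg1-1 condition alone it was 98 and with the ahg3-1 condition alone 138, settings chosen after seeing the data. Cyclic loess between arrays gave 61, of which 42 are among the 64, and leaving out dim probe sets gave 52. Without 1 array, or asked of 1 replicate number alone, it ran from 70 to 821, which follows from the fewer conditions asked. The median ABA difference of the members was -1.51 after cyclic loess and -1.48 to -1.33 without 1 wild-type array, against -1.44. The limma calls lower with ABA were 151 over all probe sets and 19 among the members. They became 1441 and 63 with the replicate block, and 1 and 0 with only the 4 wild-type arrays. Without dim probe sets they were 131 and 11. The rule used the same contrast, so nothing is read from the counts of members called. Without 1 array the counts ran from 16 to 234 and from 3 to 12. The replicate numbers share only a number in the labels, but deviations from the group means correlated between same-numbered arrays in all 6 pairs of groups, with r from 0.50 to 0.84 across probe sets.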
